A study of Mus musculus with 18 samples.

Results

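The tumour suppressor p53 and 31 genes of its network, 32 genes in all, were followed across 18 RNA-sequencing libraries of mouse bone marrow (BM) mesenchymal stem cells (MSCs), 3 libraries per group. They were taken by gene symbol from a list of p53, its negative regulators and its well-known targets, and all 32 were found among the 24421 symbols of both count tables. The question was whether the loss of POT1a, a shelterin protein that binds the single-stranded end of the telomere, raised the output of p53. The list did not hold Cdkn1a, the best known p53 target, which is given beside it.

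Cultured cells came from C57BL/6 mice aged 4 to 6 months that carried a flox-stop-flox tdTomato reporter and were either Pot1a wild-type (wt/wt) or Pot1a fl/fl. CD51+/PDGFRα+ cells of both genotypes were exposed for 12 h to gesicles, vesicles that carry Cre recombinase, at 10 µL per well, and the cells that had turned tdTomato+ were sorted 48 h later, so that the wt/wt controls had also met Cre. They were sequenced at week 1 and week 4, and Pot1a fl/fl cells after Cre are labelled Δ/Δ. The other 6 libraries held tdTomato+ cells sorted directly from the BM of C57BL/6 mice aged 2 weeks, all of which carried NG2-cre and the reporter. The titles give 3 of them as wt/Δ and 3 as Δ/Δ and were followed here, although the genotype field of all 6 reads fl/fl. These controls therefore carry a deleted Pot1a allele too, and NG2-cre is active in pericytes and other NG2+ cells and their progeny, so that the sorted population is not a single cell type.

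p53 is a transcription factor that MDM2 keeps short-lived by marking it for destruction, and DNA damage, including an unprotected telomere that is read as a break, stabilises it. It then binds DNA as a tetramer and turns on genes for cell cycle arrest, DNA repair and death, together with Mdm2, Ppm1d and Ccng1, whose products restrain it again. Because its activity is set mainly at the protein level, the mRNA of its targets is the usual reading of its output, and the mRNA of Trp53 is not. The 32 genes were grouped into p53 and its feedback (5 genes), death and mitochondria (14), arrest, growth and stress (8), and DNA repair and nucleotides (5).

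p53 recognises pairs of a 10-base consensus decamer. RefSeq promoter sequences (GRCm38.p6, the assembly that mm10 names) were at hand for 24 of the 32 genes, and 10 of these (41.7%) held the decamer on either strand within 250 bases upstream of the start, against 2216 of 27025 genes in the table (8.2%). With a second decamer of at most 2 mismatches within a spacer of 13 bases, the counts were 6 genes (25%) and 1206 genes (4.46%). The 10 were Trp53, Mdm2, Ppm1d, Ccng1, Bax, Ei24, Aen, Gadd45a, Sesn1 and Polk. Such a match describes the letters and is not evidence of binding, and its absence from the window of Btg2 or Epha2 says nothing of sites elsewhere. Stretches of 50 bases are printed for 6 genes whose levels are described below, Bax among them as a direct target that did not pass the test in any comparison, each on the strand of the gene with the decamer in capitals:
Mdm2, chr10:117710915-117710964, minus strand: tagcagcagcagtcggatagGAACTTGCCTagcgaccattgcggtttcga
Ccng1, chr11:40755447-40755496, minus strand: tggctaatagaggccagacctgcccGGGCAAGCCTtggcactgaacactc
Bax, chr7:45467076-45467125, minus strand: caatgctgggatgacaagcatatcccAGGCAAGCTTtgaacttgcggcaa
Gadd45a, chr6:67037426-67037475, minus strand: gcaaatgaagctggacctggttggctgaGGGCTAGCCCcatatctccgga
Sesn1, chr10:41887239-41887288, plus strand: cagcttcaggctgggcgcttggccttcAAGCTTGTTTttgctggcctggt
Polk, chr13:96519384-96519433, minus strand: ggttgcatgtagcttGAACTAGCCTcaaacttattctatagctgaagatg
The decamers lie 186 bases (Mdm2), 185 bases (Ccng1), 201 bases (Bax), 40 bases (Gadd45a), 173 bases (Sesn1) and 231 bases (Polk) before the start in the table. For Sesn1 and Polk that start lies inside the annotated gene (chr10:41810574-41908436 and chr13:96480687-96542579). Next to the Mdm2 decamer no second one was found, while the other 5 had one with 1 mismatch (Ccng1, Bax, Polk) or 2 mismatches (Gadd45a, Sesn1).

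Libraries held 12807832 to 90717232 counted reads in culture and 28918757 to 49992698 in sorted cells, and levels are given as CPM, the count of a gene scaled to the size of its library, after TMM normalisation within each table. All 32 genes passed the filter on low counts in both tables, with 13169 and 14605 genes tested. Pot1a itself was not called lower in Δ/Δ in any comparison. Its log2 fold change over control was -0.02 ± 0.11 (SE) at week 1, 0.39 ± 0.11 at week 4 (adjusted p = 0.0298, edgeR) and -0.17 ± 0.24 in sorted cells, so directions below follow the labels alone. Reads outside the deleted exons would still be counted, and which exons they covered was not analysed here. Stromal markers summed to 9081 to 22236 CPM in culture. Endothelial, erythroid, B cell and general haematopoietic markers were at or near 0 there, each list at no more than 0.643 CPM, while myeloid markers went from 0.797 to 3.14 CPM at week 1 to 11.2 to 17.9 CPM at week 4 and megakaryocyte markers stayed within 3.16 to 5.23 CPM. The sorted libraries held 20138 to 37841 CPM of stromal markers beside blood cell RNA, with Ptprc, the pan-leukocyte gene, at 30.5 to 60.6 CPM. Myeloid markers summed to 1070 to 2865 CPM there, B cell markers to 85.7 to 185 CPM and erythroid markers to 44.1 to 98.4 CPM.

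Per kilobase of exon, the most abundant of the 32 in culture at week 1 were Ccng1, the cyclin G1 gene, at 191 CPM per kb in wt/wt, and Phlda3, an inhibitor of AKT, at 154. Btg2, an antiproliferative gene, stood at 90.1, Bax, the pore-forming death effector, at 81.3 and Mdm2 at 32.3. Ddb2, whose product senses UV damage, was the least abundant at 0.421 CPM per kb. In the sorted controls, which were normalised in a separate table, Btg2 (158) and Plk2 (107), both of which are also known as early response genes, stood highest, and Eda2r, a receptor gene, lowest (0.21). The 32 genes together summed to 2278 to 2761 CPM in wt/wt and 2298 to 2546 CPM in Δ/Δ at week 1. At week 4 the sums were 3024 to 3849 and 3538 to 4245 CPM. Both genotypes thus lay higher at week 4 without overlap with their own week 1, and the genotypes overlapped at each week. Abundant genes weigh most in these sums. Ccng1 alone averaged 669 CPM in wt/wt and 688 CPM in Δ/Δ at week 1, and 900 and 1066 CPM at week 4. It passed the test over time in neither genotype.

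More of these genes passed the test over time in culture than between genotypes. Between week 1 and week 4, 13 of the 32 rose and 3 fell in wt/wt cells, where 17.9% of all genes tested rose and 16.1% fell. In Δ/Δ cells 16 rose and 3 fell, against 18.8% and 16.3% of all genes. The median log2 change of the 32 genes was 0.37 in wt/wt and 0.48 in Δ/Δ, while that of all genes tested was -0.01 and 0.00. These 2 comparisons share no library. The genes that rose in both were 10, Fas, Eda2r, Perp, Phlda3, Trp53inp1, Gadd45a, Sesn1, Ddb2, Xpc and Ercc5, which is 76.9% of the wt/wt list and 62.5% of the Δ/Δ list. Among all genes the shared risers made up 59.4% and 56.4%. Trp53 and Fdxr fell in both. With replicate numbers fitted as pairs within each genotype, 11 rose in both (84.6% of 13 and 61.1% of 18), with Pmaip1 and Sesn2 added and Sesn1 lost, and Fdxr alone fell in both. Among all genes the shared risers were then 59.7% and 54.5%. In Δ/Δ the deviations of same-numbered libraries correlated at -0.443, -0.120 and 0.342 between weeks, which gives no ground for such pairs. Sesn2 joined the shared list through the Δ/Δ side of that fit alone (0.33, adjusted p = 0.0322, edgeR). For Δ/Δ the 61.1% of 18 is therefore a change of setting and not a paired result.

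**Figure D1:**
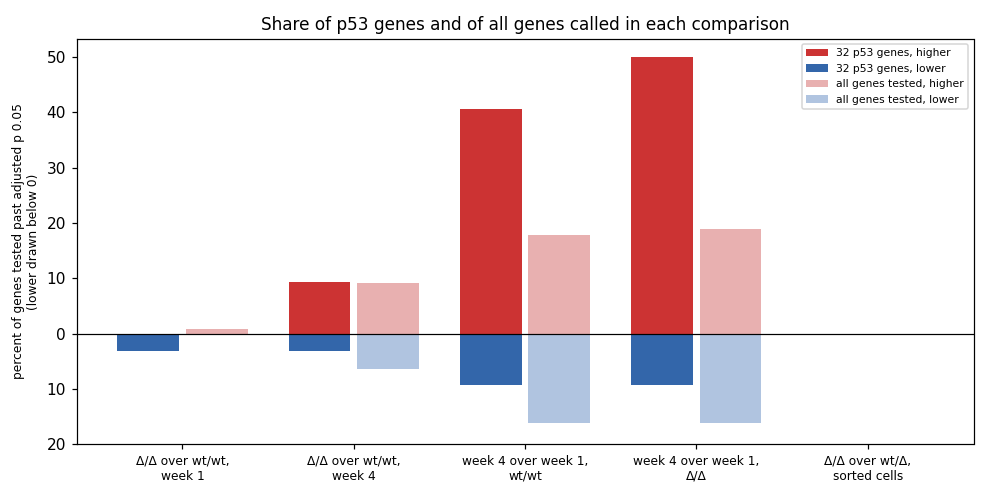
Percent of genes past an adjusted p of 0.05 in each comparison, drawn upward for higher and downward for lower, for the 32 p53 genes (saturated bars) and all genes tested (pale bars). The saturated bars reach farther up than the pale ones over time, at 40.6% against 17.9% in wt/wt and 50% against 18.8% in Δ/Δ, and sorted cells show no bar because no gene passed.

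Genes of the feedback arm moved in opposite senses in Δ/Δ, while in wt/wt Trp53 alone passed. Trp53, on chromosome 11 (chr11:69580348-69591873), stood at 104, 92.3 and 83.4 CPM in the wt/wt libraries of week 1 and at 68.3, 81.3 and 73.0 CPM in those of week 4. In Δ/Δ it went from 92.3, 88.4 and 95.4 CPM to 63.2, 56.7 and 69.3 CPM. The weeks did not overlap in either genotype, and the log2 change was -0.33 ± 0.11 in wt/wt (adjusted p = 0.0395) and -0.54 ± 0.11 in Δ/Δ (adjusted p = 0.00246, edgeR). The wt/wt fall was lost under 9 of 14 alternatives, among them without replicate 1 or 2 of week 1 (-0.26 and -0.32) or replicate 1 or 3 of week 4 (-0.27 and -0.31), with an adjusted p of 0.0521 when replicate numbers were fitted as pairs. Mdm2, the ubiquitin ligase for p53, went from 130, 149 and 130 CPM to 239, 233 and 211 CPM in Δ/Δ, 0.74 ± 0.15 on the log2 scale (adjusted p = 0.00244). In wt/wt it went from 128, 170 and 195 CPM to 230, 189 and 239 CPM. Those weeks overlapped, and the change of 0.42 ± 0.15 did not pass (adjusted p = 0.0513), though it did under 5 of 14 alternatives. Ppm1d, the phosphatase WIP1 that dephosphorylates p53, rose in Δ/Δ by 0.38 ± 0.11, and its change in wt/wt was 0.06 ± 0.11. Mdm4, the partner of MDM2, and Ccng1 passed in neither genotype. None of these genes passed the test of a difference between the genotypes in their change over time.

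Of the 14 genes of death and mitochondria 6 rose and 2 fell in wt/wt, and 7 rose and 1 fell in Δ/Δ. Among all genes 17.9% rose and 16.1% fell in wt/wt, and 18.8% and 16.3% did so in Δ/Δ. Fas, the death receptor gene on chromosome 19, stood at 12.8, 10.8 and 11.2 CPM in wt/wt at week 1 and at 43.2, 31.3 and 31.8 CPM at week 4. The Δ/Δ libraries read 14.3, 17.9 and 14.2 CPM and then 45.1, 40.7 and 42.6 CPM. Every library of week 4 thus lay above every library of week 1, by 1.61 ± 0.15 on the log2 scale in wt/wt (adjusted p = 5.92e-06) and 1.47 ± 0.15 in Δ/Δ (adjusted p = 1.37e-05). Perp, a membrane protein gene of desmosomes and p53-driven death, rose from 2.29 ± 0.26 to 6.29 ± 1.21 CPM (SD, n = 3) in wt/wt and from 3.22 ± 0.65 to 8.86 ± 1.95 CPM in Δ/Δ. Trp53inp1, whose product promotes the phosphorylation of p53 and autophagy, changed by 1.30 ± 0.25 and 1.31 ± 0.25. Phlda3 rose by 0.85 ± 0.18 and 0.70 ± 0.18, and Eda2r by 0.70 ± 0.19 and 0.68 ± 0.19. Aen, an apoptosis-enhancing nuclease gene, rose in wt/wt (0.63 ± 0.13), and in Δ/Δ its change of 0.27 ± 0.13 did not pass. In Δ/Δ the test was also passed by Pmaip1, which encodes the BH3-only protein NOXA (1.25 ± 0.42, adjusted p = 0.0359), and by Ei24, an endoplasmic reticulum protein gene (0.43 ± 0.15, adjusted p = 0.0433). The call of Pmaip1 was lost without replicate 1 or 3 of week 1 or replicate 1 or 2 of week 4 (1.01 to 1.20, adjusted p 0.0744 to 0.125, edgeR), and that of Ei24 without replicate 2 or 3 of either week (0.33 to 0.39, adjusted p 0.127 to 0.138).

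Other genes of this role did not pass in either genotype. Bax changed by -0.11 ± 0.13 in wt/wt and 0.02 ± 0.13 in Δ/Δ (95% interval -0.25 to 0.30), and Bbc3, which encodes PUMA, by 0.37 ± 0.20 and 0.01 ± 0.20. Apaf1, the scaffold of the apoptosome, gave -0.13 ± 0.22 and -0.16 ± 0.22, and Tnfrsf10b, the TRAIL receptor gene, 0.04 ± 0.16 and -0.04 ± 0.16. None of these 4 passed the test in any comparison. Fdxr, a mitochondrial ferredoxin reductase gene, fell by 0.75 on the log2 scale in wt/wt and by 0.64 in Δ/Δ (SE 0.15 for both). Dram1, an autophagy gene, fell by 0.54 in wt/wt, and its change in Δ/Δ was -0.32 ± 0.14 (adjusted p = 0.0996).

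**Figure D2:**
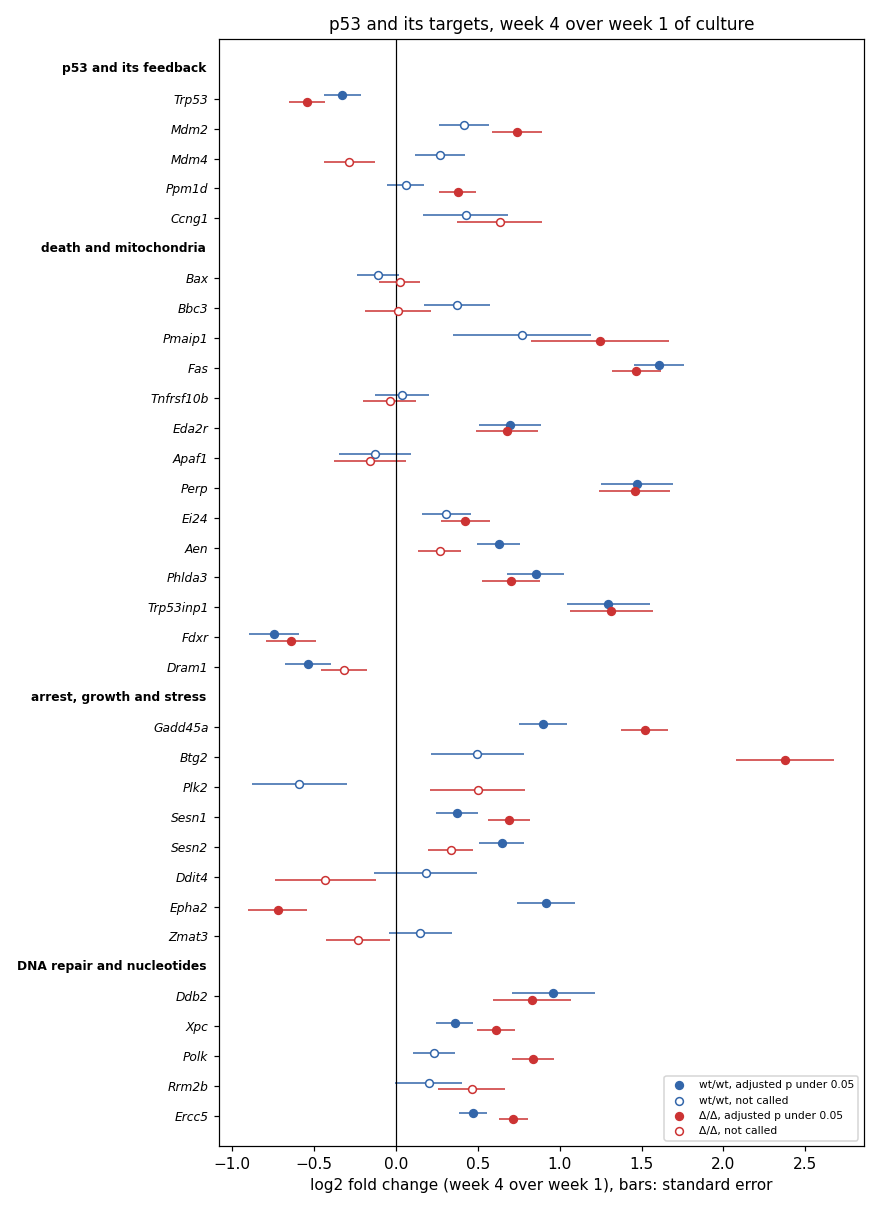
Log2 fold change of each p53 gene from week 1 to week 4 of culture in wt/wt (blue) and Δ/Δ (red), grouped by role, with bars of 1 standard error and filled points where the adjusted p was under 0.05. Fas, Perp and Trp53inp1 lie above 1 in both genotypes, and Btg2 and Epha2 are the genes whose points stand farthest apart.

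Of the arrest, growth and stress genes, Gadd45a, a stress sensor of cell cycle arrest and repair on chromosome 6, rose by 0.90 ± 0.15 in wt/wt and by 1.52 ± 0.14 in Δ/Δ. Sesn1, a sestrin gene that restrains mTORC1 under stress, rose by 0.37 ± 0.13 (adjusted p = 0.0401) and 0.69 ± 0.13, and the wt/wt call was lost under 9 of 14 alternatives, including without any replicate of week 1 (0.35 to 0.41) or replicate 1 or 2 of week 4 (0.24 and 0.41). Its paralogue Sesn2 rose in wt/wt by 0.65 ± 0.14 and gave 0.34 ± 0.14 in Δ/Δ (adjusted p = 0.0759). Btg2 rose in Δ/Δ by 2.38 ± 0.30, the largest change of the 32 in that genotype, and gave 0.50 ± 0.28 in wt/wt. Epha2, an ephrin receptor kinase gene, rose by 0.92 ± 0.18 in wt/wt and fell by 0.72 in Δ/Δ (SE 0.18). Ddit4, an mTORC1 inhibitor induced by several stresses, Plk2, a polo-like kinase gene, and Zmat3, which encodes a zinc finger RNA-binding protein, passed in neither.

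Of the 5 repair genes 3 rose in wt/wt and 4 in Δ/Δ, where 17.9% and 18.8% of all genes rose. Ercc5, which encodes the XPG nuclease of nucleotide excision repair, stood at 53.8, 57.2 and 51.8 CPM in wt/wt at week 1 and 77.9, 75.4 and 72.4 CPM at week 4. In Δ/Δ it went from 51.6, 53.5 and 49.5 CPM to 83.7, 83.5 and 86.6 CPM. Its weeks stood apart in both genotypes, with changes of 0.47 ± 0.09 and 0.72 ± 0.09 on the log2 scale (adjusted p = 0.00126 and 5.71e-05). Xpc, the damage recogniser of the same pathway, rose by 0.36 ± 0.11, a call lost under 6 of 14 alternatives (0.31 to 0.38 without replicate 1 or 3 of week 1 or 1 or 2 of week 4), and 0.61 ± 0.11, and Ddb2 by 0.96 ± 0.25 and 0.83 ± 0.24. Ddb2 shares 23.8% of its exon bases with Acp2 on the opposite strand, and the library kit does not keep strand. Polk, the gene for translesion polymerase kappa, rose in Δ/Δ by 0.84 ± 0.13 and gave 0.23 ± 0.13 in wt/wt. Rrm2b, the p53-inducible subunit of ribonucleotide reductase, gave 0.20 ± 0.20 and 0.46 ± 0.20 and passed in neither.

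Cdkn1a, which blocks the cyclin-dependent kinases, rose by 1.09 ± 0.16 in wt/wt and 1.10 ± 0.16 in Δ/Δ (95% interval of the difference -0.47 to 0.48), from 182 to 231 CPM at week 1 to 361 to 534 CPM at week 4 over both genotypes. Of 48 other p53 targets tested, 16 rose (33.3%) and 8 fell (16.7%) in wt/wt, against 17.9% and 16.1% of all genes. In Δ/Δ 17 rose (35.4%) and 8 fell (16.7%), against 18.8% and 16.3% of all genes. Dcxr, a xylulose reductase gene, rose in both (1.48 ± 0.13 and 1.37 ± 0.13). Tnfaip8 (-1.34 ± 0.14) and Ckap2 (-1.09 ± 0.12) fell in wt/wt, and Trp63, the p53 family member, fell in Δ/Δ (-1.58 ± 0.18). Genes that p53 lowers through p21 and the DREAM complex, most of them genes of the cell cycle, fell almost throughout. In wt/wt 24 of 24 fell, with a median of -2.23, and in Δ/Δ 23 of 24 fell, with a median of -1.87. Among all genes 16.1% fell in wt/wt and 16.3% in Δ/Δ. Their summed level was 1651 to 1865 CPM over both genotypes at week 1 and 373 to 559 CPM at week 4. Osteoblast markers moved over the same weeks, from 190 to 245 CPM in wt/wt to 3555 to 6309 CPM, and in Δ/Δ from 254 to 431 CPM to 266 to 752 CPM. Cell number, RNA per cell and cell state at collection cannot be told apart in these bulk libraries, and the part of slower division or of differentiation in the rise of the p53 targets was not tested.

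Genotype moved few of the 32 genes at week 4. Of them 3 were higher in Δ/Δ and 1 was lower, against 9.2% and 6.46% of all genes tested, so the share of risers was close to that of any gene. The median log2 fold change was 0.14, and 0.00 over all genes. Gadd45a (chr6:67035096-67037407) stood at 14.5, 17.7 and 15.9 CPM in Δ/Δ and 6.53, 7.18 and 7.65 CPM in wt/wt. All 3 Δ/Δ libraries lay above all controls, 2.24-fold on average (log2 1.16 ± 0.14, adjusted p = 0.000106). Exons of a gene on the opposite strand, E230016M11Rik, cover 19.1% of its own. Polk was 1.76-fold higher, at 200.02, 218 and 182 CPM against 104, 104 and 132 CPM (log2 0.82 ± 0.13, adjusted p = 0.000765), again without overlap. Sesn1 was higher by 0.43 ± 0.13 (adjusted p = 0.038), at 45.3, 40.4 and 43.5 CPM against 37.7, 30.5 and 27.7 CPM, and lost its call under 8 of 13 alternatives, including without any Δ/Δ library (0.38 to 0.45) or without wt/wt replicate 2 or 3 (0.40 and 0.33). Epha2 (chr4:141301221-141329384) went the other way, at 11.6, 11.1 and 12.9 CPM in Δ/Δ and 30.2, 45.5 and 41.3 CPM in wt/wt. Its log2 fold change was -1.72 ± 0.18 (adjusted p = 3.42e-05), and its groups stood well apart. The calls of Gadd45a, Polk and Epha2 held under each of 13 alternatives. Without wt/wt replicate 1 Fas passed too (0.43), and without wt/wt replicate 3 Trp53inp1 did (0.80).

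The other members did not pass at week 4, and their intervals bound what could have been missed. Mdm2 gave 0.05 (95% interval -0.28 to 0.38), Cdkn1a -0.02 (-0.36 to 0.32), Bax -0.10 (-0.38 to 0.17) and Phlda3 0.00 (-0.39 to 0.38). Intervals of Pmaip1 (-0.07 to 1.74) and Trp53inp1 (-0.08 to 1.00) were wider and reached 3.34-fold and 2.00-fold. All 5 repair genes had a positive value, from 0.17 for Ercc5 to 0.82 for Polk, and of these Polk alone passed. Over the 32 genes 21 values lay above 0, and over all genes tested 6628 of 13169 did. The groups did not overlap for 8 of the 32 with Δ/Δ higher and for 1 with Δ/Δ lower, where 15.6% and 11.8% of all genes did so. Osteoblast markers differed by genotype at week 4, at 266 to 752 CPM in Δ/Δ and 3555 to 6309 CPM in wt/wt, and their part in these values was not tested.

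**Figure D3:**
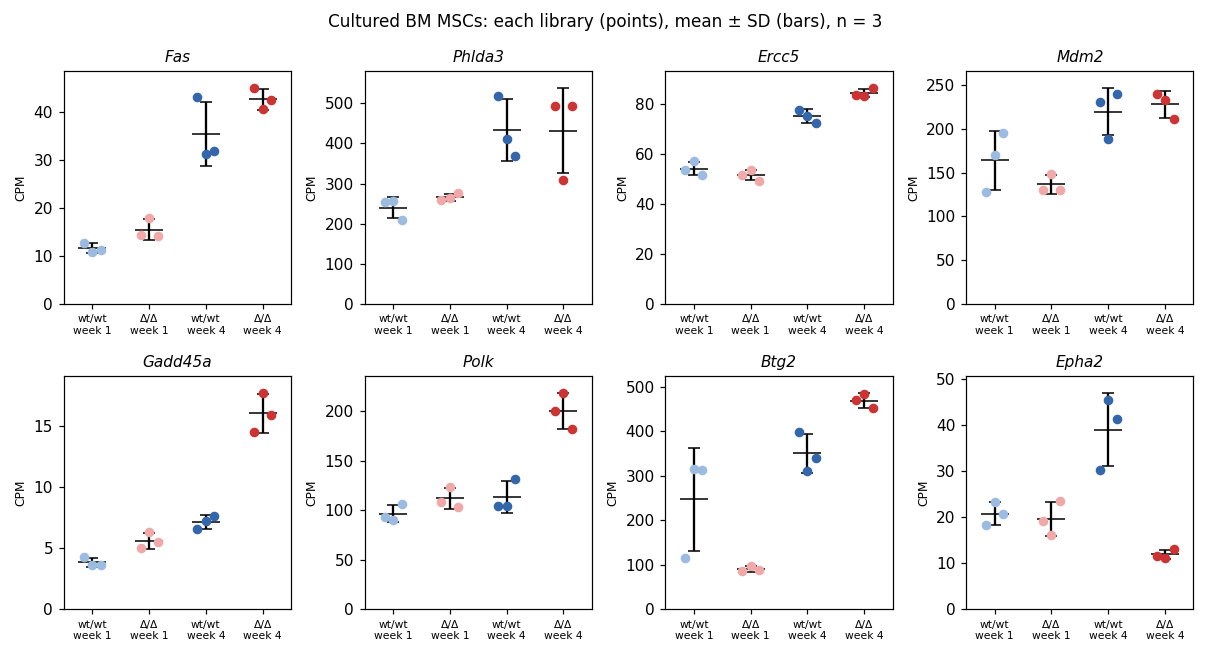
CPM of 8 p53 genes in each cultured library (points) with the mean ± SD of 3 libraries. Fas, Phlda3 and Ercc5 stand higher at week 4 without overlap in both genotypes, Mdm2 does so in Δ/Δ and overlaps in wt/wt, Gadd45a and Polk stand highest in Δ/Δ at week 4, Btg2 is lowest in Δ/Δ at week 1 and Epha2 is lowest in Δ/Δ at week 4.

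At week 1 none of the 32 genes was higher in Δ/Δ by edgeR or by DESeq2, and 1 was lower by edgeR, where 0.752% of all genes were higher and 0.266% lower. At an unadjusted p under 0.05, 4 were higher and 2 lower, against 7.16% and 4.76% of all genes. Btg2, on chromosome 1, read 86.7, 97.3 and 87.1 CPM in Δ/Δ and 114, 314 and 313 CPM in wt/wt. The groups did not overlap, but replicate 1 of wt/wt lay near the Δ/Δ libraries. The log2 fold change was -1.46 ± 0.29 (adjusted p = 0.0356), and the call was lost under 7 of 13 alternatives, including without any Δ/Δ library (-1.52 to -1.43) or without wt/wt replicate 2 or 3 (-1.24 and -1.25). Plk2, at 50.4, 68.8 and 62.1 CPM against 64.2, 161 and 131 CPM, gave -0.98 ± 0.29 (adjusted p = 0.153) and overlapped through the same library. Without that library both passed, Btg2 at -1.81 and Plk2 at -1.29. Immediate-early genes, which rise within minutes of handling or growth factor stimulation, moved with them. Their summed level was 1552 CPM in wt/wt replicate 1, 3847 and 3205 CPM in the other wt/wt libraries and 1392 to 1502 CPM in Δ/Δ. Nr4a1, an orphan nuclear receptor gene of that list, gave -2.93 ± 0.63 (adjusted p = 0.05), and their part in the value of Btg2 was not tested. Gadd45a already leaned upward, at 5.02, 6.27 and 5.45 CPM against 4.22, 3.64 and 3.61 CPM without overlap, and 0.54 ± 0.15 did not pass (adjusted p = 0.112). Over the 32 genes 7 stood apart with Δ/Δ higher and 1 with Δ/Δ lower, against 11.8% and 10.7% of all genes.

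The genotype effect differed between the weeks for 2 of the 32 genes, 1 in each direction, where 4.08% of all genes shifted upward and 3.08% downward. For Btg2 the effect was larger at week 4 than at week 1 by 1.88 ± 0.41 (adjusted p = 0.0127), passing from below control to 0.42 ± 0.28 above it. For Epha2 it was lower by 1.64 on the log2 scale (SE 0.25, adjusted p = 0.00158), from -0.08 ± 0.18 to -1.72 ± 0.18. Polk (0.61 ± 0.18, adjusted p = 0.0674) and Gadd45a (0.62 ± 0.20, adjusted p = 0.0958) did not pass. For Polk the difference passed with DESeq2 (0.60, adjusted p = 0.031) and without wt/wt replicate 3 of week 4 (0.72, adjusted p = 0.0265), and for Gadd45a it passed under none of 18 alternatives. Fos, Egr1, Ier2 and Zfp36 of the immediate-early list differed in the same sense as Btg2, by 1.81, 2.27, 1.49 and 1.46. Of its 21 genes 5 passed upward and 0 downward, against 4.08% and 3.08% of all genes, and 5 had values below 0. At week 4 itself 11 of the 21 values lay above 0 and 10 below. Zfp36 (1.01) was called higher there, and Myc (-0.96) and Klf4 (-1.21) lower.

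**Figure D4:**
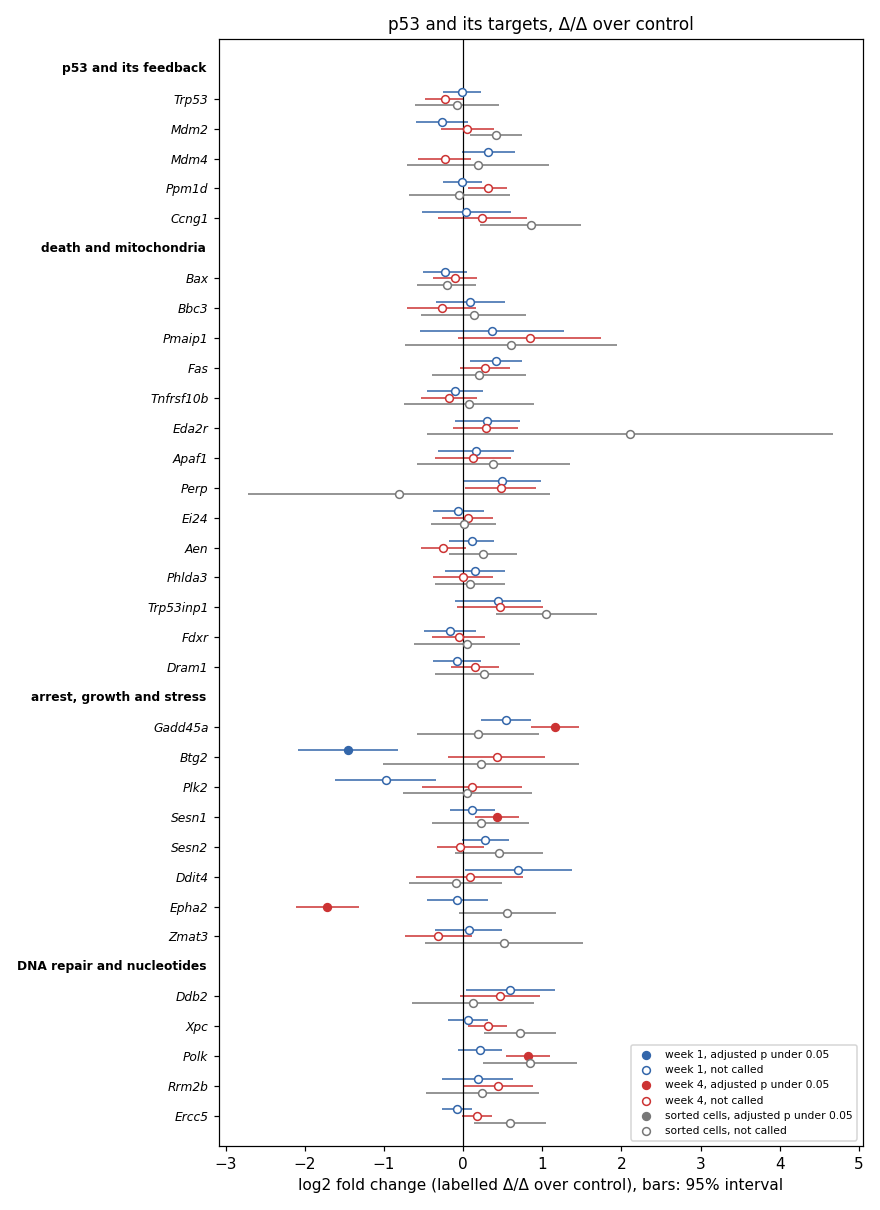
Log2 fold change of each p53 gene in libraries labelled Δ/Δ over their controls at week 1 (blue), week 4 (red) and in sorted cells (grey), with 95% intervals and filled points where the adjusted p was under 0.05. The filled points are Btg2 at week 1 and Gadd45a, Sesn1, Polk and Epha2 at week 4, and most grey points lie right of 0 with wide intervals.

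Other genes tied to p53 were also compared at week 4. Of 48 other targets 4 were higher and 5 lower, where 9.2% and 6.46% of all genes were. At week 1 edgeR called none in either direction. At an unadjusted p under 0.05, 2 were higher and 6 lower there, against 7.16% and 4.76% of all genes. At week 4 Tnfaip8, an anti-apoptotic gene, gave 0.83 ± 0.14 and Cyfip2, a regulator of actin, -2.04 ± 0.41. The cyclin gene Ccnd1 gave -0.95 ± 0.21. Of 27 regulators of p53 tested, Rpl5, a ribosomal protein gene whose product can bind MDM2, was lower (-0.57 ± 0.10) and no other passed. Of the 24 genes lowered through DREAM, Cenpe, a kinetochore motor gene, was higher (0.64 ± 0.18) and none was lower. Values of 21 of the 24 lay above 0, with a median of 0.17, where 6628 of 13169 genes tested lay above 0. At an unadjusted p under 0.05, 7 were higher and 1 lower, against 2003 and 1553 of the 13169. Targets of ATF4, a stress factor that also drives Ddit4 and Sesn2, were lower for 11 of 15, against 6.46% of all genes. Trib3 gave -2.00 ± 0.26 and Aldh1l2 -1.76 ± 0.18, while Ddit4 gave 0.08 ± 0.31 and Sesn2 -0.04 ± 0.14.

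In the sorted cells 0 of the 14605 genes passed the test by edgeR (0% in either direction), while DESeq2 called 415 genes, 124 higher and 291 lower, of which Trp53inp1 (adjusted p = 0.0294) and Xpc (adjusted p = 0.0494) were among the 32. The libraries were uneven before any comparison. All 3 wt/Δ libraries differed from each other, with chi-squared per degree of freedom of 313 to 376 over their pairs. Replicate 1 was high in Btg2, at 863 CPM against 170 and 272 CPM, and in Cdkn1a, at 1280 CPM against 606 and 503 CPM. Replicate 3 was high in Plk2, at 751 CPM against 313 and 379 CPM, and in Apaf1, at 41.4 CPM against 14.7 and 14.9 CPM. Megakaryocyte markers summed to 1565 CPM in wt/Δ replicate 2 and 783 CPM in Δ/Δ replicate 3, against 16.4 to 26 CPM in the other 4. Endothelial markers summed to 755 to 982 CPM in wt/Δ and 1145 to 1193 CPM in Δ/Δ without overlap. Reads of Ddx3y, a Y-linked gene, were found in wt/Δ replicates 1 and 3 alone, so that all Δ/Δ libraries were female and 2 of the 3 controls were male.

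The fold changes of the 32 genes nonetheless lay mostly on the side of Δ/Δ, with 27 of 32 above 0, against 49.4% of all genes tested. Their median was 0.22, and -0.01 over all genes. At an unadjusted p under 0.05 there were 6 genes higher and 0 lower, where 5.03% and 7.24% of all genes were. The groups did not overlap for 8 genes with Δ/Δ higher and for 0 with Δ/Δ lower, against 9.5% and 11% of all genes. The 8 were Mdm2, Ccng1, Eda2r, Aen, Trp53inp1, Xpc, Polk and Ercc5, from the feedback, death and repair roles, and an exact permutation test of 3 against 3 libraries cannot give any of them a p below 0.1.

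Mdm2 stood at 88.8, 86.5 and 93.0 CPM in Δ/Δ and 63.9, 65.1 and 72.2 CPM in wt/Δ, a log2 fold change of 0.41 ± 0.14. Ccng1 stood at 128, 159 and 135 CPM against 46.5, 93.1 and 94.0 CPM (0.85 ± 0.27). Trp53inp1 stood at 53, 64.6 and 64.8 CPM against 22.9, 22.3 and 42.8 CPM (1.05 ± 0.28). In each of them the lowest Δ/Δ library lay above the highest control. Repair genes gave the largest median of the 4 roles, 0.59, with Xpc at 65.5, 49 and 58.9 CPM against 29.99, 42.5 and 32.8 CPM (0.72 ± 0.20). Polk was at 46.0, 27.4 and 37.3 CPM against 15.7, 22.0 and 24.0 CPM (0.84 ± 0.26), and Ercc5 at 29.2, 31.6 and 31.5 CPM against 22.1, 16.5 and 22.8 CPM (0.59 ± 0.20). The adjusted p of these 6 lay between 0.257 and 0.317, so none is a call at this number of libraries. Eda2r was low, at 5.38, 4.29 and 6.29 CPM against 1.48 and 2.23 CPM and no read in wt/Δ replicate 1, where 3 reads would be 0.0753 CPM. It lies on the X chromosome, and the groups differed in sex, whose part in its value was not tested.

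**Figure D5:**
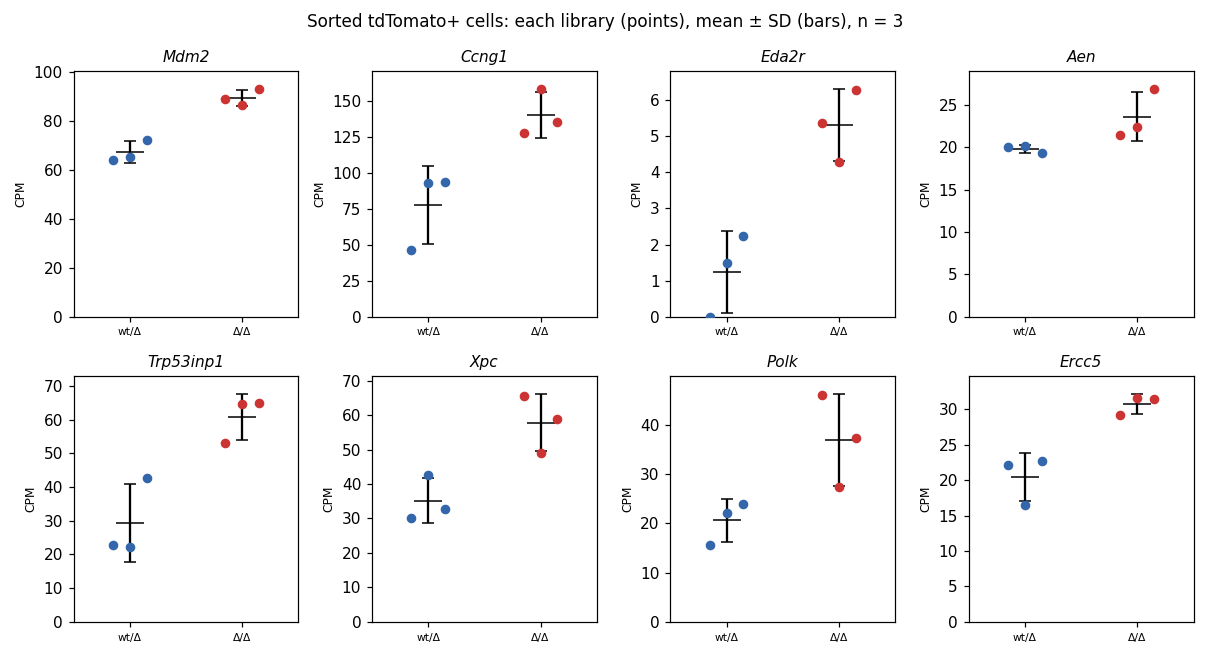
CPM in each sorted library (points, mean ± SD of 3) for the 8 p53 genes whose wt/Δ and Δ/Δ libraries did not overlap. In every panel the Δ/Δ points lie above the wt/Δ points, and none of the genes passed the adjusted test.

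The leaning depended on the libraries kept. Without wt/Δ replicate 1, 25 of 32 lay above 0, against 49.2% of all genes. There 11 were higher at an unadjusted p under 0.05, against 6.42% of all genes, with Mdm2 at 0.37, Ccng1 at 0.58, Trp53inp1 at 0.90, Xpc at 0.61, Polk at 0.67 and Ercc5 at 0.64. Without the 2 libraries rich in megakaryocyte markers the counts were 26 and 2 (Ccng1 and Xpc), against 49.3% and 3.52% of all genes. The controls left were male and the Δ/Δ libraries left were female, so sex and genotype cannot be told apart there. The same holds without wt/Δ replicate 2 alone. All Δ/Δ libraries and wt/Δ replicate 2 were female, so with a term for sex the contrast rested on that 1 control library. It was also rich in megakaryocyte markers. With that term 23 of 32 lay above 0, against 51.5% of all genes. The median of the 32 was 0.46, and 0.02 over all genes. Trp53inp1 gave 1.45, Ercc5 0.90, Mdm2 0.46, Ccng1 0.60, Xpc 0.45 and Polk 0.75. Over every alternative the lowest values were 0.36 for Mdm2, 0.58 for Ccng1, 0.45 for Xpc, 0.65 for Polk, 0.84 for Trp53inp1 and 0.44 for Ercc5. These are sizes of change and not calls. Leaving out any of the other libraries gave 22 to 28 genes above 0, against 48.1% to 50.3% of all genes. It gave 3 to 9 higher at an unadjusted p under 0.05, with 1 lower where wt/Δ replicate 3 was left out. The 9 came without that library, where 10.5% of all genes were higher and 11.8% lower, and the 3 without Δ/Δ replicate 2, where 2.56% were higher. Osteoblast markers summed to 5607, 10467 and 13798 CPM in wt/Δ and 4148, 4820 and 6950 CPM in Δ/Δ, with overlap, and all 4 had values below 0 (median -0.80) without passing. Sex, endothelial and osteoblast content and genotype thus moved together in part, and their part in these values was not tested. Of the genes called between genotypes in culture, Polk is among the 8 above. The others overlapped between the groups, where Gadd45a gave 0.19 ± 0.33, Sesn1 0.22 ± 0.26, Btg2 0.22 ± 0.53 and Epha2 0.56 ± 0.26, and Cdkn1a gave -0.18 ± 0.38. Trp53 was at 101, 103 and 94.0 CPM in Δ/Δ and 125, 119 and 69.7 CPM in wt/Δ, with overlap. Bax (-0.21 ± 0.16), Perp (-0.81 ± 0.82), Ppm1d (-0.05 ± 0.27) and Ddit4 (-0.09 ± 0.25) were the others with values below 0.

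Of 47 other p53 targets tested in sorted cells edgeR called none. Values of 23 of the 47 lay above 0, against 49.4% of all genes. Their median was -0.0045, and -0.0066 over all genes. At an unadjusted p under 0.05, 8 were higher and 2 lower, against 5.03% and 7.24% of all genes. Among them were Slc19a2, a thiamine transporter gene (1.17 ± 0.28), and Ercc1, a repair nuclease gene (-0.69 ± 0.16). Of the 26 regulators Usp7, which encodes a deubiquitinase of p53 and MDM2, gave 0.62 ± 0.14 without passing. The DREAM genes lay on the side of Δ/Δ for 19 of 24, where 49.4% of all genes lay above 0. Mki67, the proliferation marker, gave 0.80 ± 0.19, and none of the 24 passed.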

How the data were processed

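RNA of 18 libraries (6 groups of 3) went through SMART-Seq v4 and Nextera XT, which keep neither strand nor molecular identifiers. The deposited tables hold raw counts of reads per gene symbol, whole numbers without normalization, which the authors made with HISAT2 2.0.4 and featureCounts 1.6.3 on mm10 (from the submitters' processing notes) and tested with DESeq2 in the study.

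Groups follow the sample titles, and 0 columns were left unmapped. Differential expression was tested with edgeR 4.0.16 (R 4.3.3) after filterByExpr (minimum count 10) and TMM scaling, using quasi-likelihood F-tests, p-values adjusted after Benjamini and Hochberg over all genes tested, and a threshold of 0.05. The 12 cultured libraries shared a fit with 4 group coefficients, and the 6 sorted libraries were fitted alone. Adjusted p-values are from these fits unless DESeq2 is named, values after ± are standard errors unless SD is written, and changes are on the log2 scale. Genotype and time comparisons in culture share libraries and are only set side by side. The fits were tested on simulated data.

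The 32 genes and all lists were chosen with earlier results of these data known. Named beside the 32 are Pot1a, Cdkn1a and, per list and comparison, up to 4 genes past the test with the smallest adjusted p, or up to 2 with the smallest p where none passed. Cell type markers are given as sums, apart from Ptprc and Ddx3y, which were named after their values were seen.

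Replicates differed beyond counting error (chi-squared per degree of freedom 10.8 to 376 over 18 pairs), so no library was merged. The study gives 3 mice per group, but no label says which libraries share an animal or culture, so p-values measure the spread between these libraries. Deviations of same-numbered libraries correlated at 0.218, 0.356 and 0.341 between weeks in wt/wt, and the numbers were taken to pair those libraries. Elsewhere at least 1 of 3 correlations was under 0.1. Between wt/wt and Δ/Δ at week 4 they were 0.812, 0.309 and -0.155, so replicate 1 of both genotypes deviated alike.

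Alternatives were RLE or library-size scaling, other filters, DESeq2 1.42.0, blocks by replicate number (over all libraries, or nested in genotype), only the libraries compared, thresholds of 0.01 and 0.1, and leaving out each library. Counts of alternatives given for single genes are at the threshold of 0.05. A term for sex and leaving out 2 libraries rich in megakaryocyte markers were added after the data were seen. RefSeq promoters and gene positions (GRCm38.p6) were matched by symbol, and levels per kb use the union of a gene's exons.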

Additional observations from a re-analysis of the deposited data

Results flagged for a closer look

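The genotype effect differed between week 1 and week 4 in a direct test for 2 of the 32 genes. It was higher at week 4 by 1.88 on the log2 scale for Btg2 (adjusted p = 0.0127 by edgeR) and changed by -1.64 for Epha2 (adjusted p = 0.00158). At a threshold of 0.05 both differences passed under each of 18 other fits, at 1.65 to 2.23 for Btg2 and -1.79 to -1.50 for Epha2, while at a threshold of 0.01 Epha2 passed and Btg2 did not. For Btg2 all 3 Δ/Δ libraries lay below all wt/wt libraries at week 1 and above all of them at week 4, and for Epha2 the groups overlapped at week 1 and stood apart at week 4. No explanation was weighed.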

How the results depend on the processing

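No called value of the 32 genes changed direction under any alternative. At week 1 the 1 call became 2 with DESeq2 and 0 with the replicate block (Btg2 adjusted p = 0.0617), at a threshold of 0.01 and with only the 6 libraries compared, and leaving out single libraries gave 0 to 2. It was 2 without wt/wt replicate 1, which added Plk2, and 0 without any other library of that week. The 2 differences between weeks became 1 at a threshold of 0.01 and 4 at 0.1. The 16 calls over time in wt/wt became 10 at a threshold of 0.01. The 0 calls in sorted cells became 2 with DESeq2. Leaving out single libraries gave 3 to 5 calls at week 4, 2 to 3 for the difference between weeks, 13 to 16 over time in wt/wt, 15 to 19 over time in Δ/Δ and 0 in sorted cells. With the replicate block within each genotype, which the pairing of the wt/wt libraries over time calls for, 15 of the 32 genes passed in wt/wt (13 higher, 2 lower). Sesn1 (adjusted p = 0.0531) and Trp53 (0.0521) were lost and Pmaip1 (0.0446) was gained. The same fit gave 21 in Δ/Δ, where the numbers do not pair the libraries. The block by number over all libraries gave 4 calls at week 4, 2 for the difference between weeks, 15 and 18 over time and 0 in sorted cells. Over time Ppm1d lost its Δ/Δ call without week 1 replicate 3 (adjusted p = 0.106) or week 4 replicate 1 (0.0679), Ddb2 without Δ/Δ week 1 replicate 3 (0.0688), and Eda2r without week 1 replicate 1 of either genotype (0.0518 in wt/wt, 0.0538 in Δ/Δ). Counts over all genes moved more at week 1, where 134 became 445 with DESeq2, 85 with at least 10 counts in every library, 237 with only the 6 libraries compared, 40 and 331 at thresholds of 0.01 and 0.1, and 49 to 181 without single libraries. At week 4, 2062 became 1267 with only the 6 libraries compared and 1228 at a threshold of 0.01. That threshold left 508 of 942 for the difference between weeks and 2844 of 4483 and 2901 of 4623 over time. In sorted cells 0 became 415 with DESeq2, 4 without wt/Δ replicate 2 and 2 without the libraries rich in megakaryocyte markers. Scaling by library size alone moved the median of the sorted comparison to 0.07 over all genes and 0.30 over the 32. At week 4 leaving out wt/wt replicate 1 added Fas (adjusted p = 0.039) and leaving out wt/wt replicate 3 added Trp53inp1 (0.0356). Groups of 3 libraries limit all of these results.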
